A study of Homo sapiens with 8 samples.

Results

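Death receptors are members of the TNF receptor superfamily that carry a cytoplasmic death domain, and 10 genes of this pathway were followed by symbol through 8 RNA-seq libraries of BT-549 cells. They comprise the TRAIL ligand TNFSF10, its receptors TNFRSF10A, TNFRSF10B, TNFRSF10C and TNFRSF10D, the receptors FAS and TNFRSF1A, and the shared signaling components FADD, CASP8 and CFLAR. All 10 were listed among 23228 genes, and 9 of them were among the 13694 genes with enough reads to test, since TNFSF10 did not pass the filter on low counts. BT-549 is an established human triple negative breast cancer (TNBC) cell line. It was grown in RPMI medium with serum and exposed for 24 h to DMSO (vehicle), to the LIFR inhibitor EC359 at 100 nM, to the histone deacetylase inhibitor (HDACi) vorinostat at 10 µM, or to EC359 + vorinostat at the same doses (combination). Each group had 2 libraries, so every value below comes from 1 cell line, 1 dose of each drug and 1 time point. The labels do not say whether the libraries of a group came from separate cultures, and the series text speaks of samples run in duplicate, so p-values measure only the spread between these libraries, which may be technical.

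TRAIL and FAS ligand bind trimeric receptors at the cell surface, and the clustered death domains recruit the adaptor FADD, which in turn binds procaspase-8 (CASP8) and its inactive relative FLIP (CFLAR). TNFRSF10A and TNFRSF10B (also called DR4 and DR5) have functional death domains, whereas TNFRSF10C lacks a cytoplasmic death domain altogether and TNFRSF10D has a truncated one, so that both are known as decoy receptors. TNFRSF1A binds TNF and first assembles a survival complex through TRADD, and FADD and CASP8 join a later complex. In breast cancer, mesenchymal TNBC lines have been studied for their sensitivity to TRAIL receptor agonists.

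RefSeq promoter sequence (GRCh38.p14, the 250 bases before an annotated start) was at hand for 6 of the genes, in 13 windows. The 4 windows shown belong to genes with contrasting patterns: TNFSF10 was almost silent in every group, TNFRSF1A and CFLAR fell with vorinostat, and CFLAR and FADD act at the same receptor complex. Capitals mark matches to a set of short motifs on either strand. Which start is used in BT-549 cells was not measured.
TNFSF10 promoter, chr3:172523431-172523680, minus strand: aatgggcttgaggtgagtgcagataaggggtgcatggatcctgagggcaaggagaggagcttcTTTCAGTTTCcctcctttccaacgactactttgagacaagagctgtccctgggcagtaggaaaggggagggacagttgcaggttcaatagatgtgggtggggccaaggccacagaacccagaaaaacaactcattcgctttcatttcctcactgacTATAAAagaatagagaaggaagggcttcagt
CFLAR promoter, first of 4 windows, chr2:201118466-201118715, plus strand: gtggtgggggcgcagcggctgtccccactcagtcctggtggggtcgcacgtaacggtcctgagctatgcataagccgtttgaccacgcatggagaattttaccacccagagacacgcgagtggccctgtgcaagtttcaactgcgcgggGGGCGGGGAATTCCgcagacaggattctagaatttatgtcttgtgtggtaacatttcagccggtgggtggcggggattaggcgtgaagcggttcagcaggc
FADD promoter, chr11:70203046-70203295, plus strand: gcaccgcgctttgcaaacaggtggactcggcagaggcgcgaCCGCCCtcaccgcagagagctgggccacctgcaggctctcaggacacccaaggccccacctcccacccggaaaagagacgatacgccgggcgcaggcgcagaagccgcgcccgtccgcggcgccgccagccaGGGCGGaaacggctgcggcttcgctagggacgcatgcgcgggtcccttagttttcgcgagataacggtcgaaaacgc
TNFRSF1A promoter, chr12:6342077-6342326, minus strand: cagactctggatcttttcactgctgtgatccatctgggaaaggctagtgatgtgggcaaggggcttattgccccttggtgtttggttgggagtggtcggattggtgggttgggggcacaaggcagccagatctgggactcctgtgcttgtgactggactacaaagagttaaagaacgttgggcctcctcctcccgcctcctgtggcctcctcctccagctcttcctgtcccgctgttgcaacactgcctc

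The TNFSF10 window held an interferon response element, present in 3.02% of 35116 RefSeq windows of this length, and a TATA box (TATAAA) beginning 31 bases before the start, present in 10.7%. The first CFLAR window held a GC box (GGGCGG, present in 42.6%) that overlapped an NF-kB site, which was present in 9.96%. The CFLAR windows not shown held GC boxes, an AP-1 site or no motif, and none held an NF-kB site. The FADD window held 2 GC boxes and no other motif of the set. The TNFRSF1A window held none of the motifs searched, which were the GC box, TATA box, AP-1 site (TGANTCA, 6.57%), cAMP response element (TGACGTCA, 1.65%), CHOP and ATF4 composite element (TGATGNAAN, 3.13%), forkhead core (GTAAACA, 2.98%), E-box (CACGTG, 6.34%), ETS core (CCGGAAG, 8.52%), interferon response element and NF-kB site. These are letter matches and say nothing of occupancy.

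Depth was similar in all libraries, at 19069450 to 24759041 reads counted on genes. Replicates were farthest apart in the EC359 group, where the log2 differences between its libraries had an SD of 0.563, against 0.312 to 0.448 in the other groups. The markers of the line were as labelled in vehicle: the mesenchymal gene VIM was at 2111 CPM (read counts scaled to library size after TMM normalization), the estrogen receptor gene ESR1 had no read, the progesterone receptor gene PGR had 1 read in all 8 libraries, and the luminal genes KRT8, KRT18 and CDH1 were at 1.34, 0.986 and 0.258 CPM. ERBB2 was detected at 99.1 CPM in vehicle and fell by 2.70 on the log2 scale with vorinostat (SE 0.10, adjusted p = 2.21e-07, edgeR quasi-likelihood test), and VIM rose by 1.22 (SE 0.07, adjusted p = 1e-06). ESR1 was called higher in the combination (adjusted p = 0.00941), at 20 and 11 reads. The combination libraries differed in luminal genes, with KRT8 at 1.33 and 9.19 CPM and KRT18 at 0.716 and 8.02 CPM in combination 1 and 2. In vorinostat 1 and 2, KRT8 was at 9.67 and 4.68 CPM, CDH1 at 2.21 and 0.468 CPM and KRT18 at 5.71 and 4.55 CPM. The part of these differences in the results was not tested. In bulk RNA, a change in the share of cells that express a gene and a change in RNA per cell cannot be told apart.

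The 4 TRAIL receptor genes lie side by side on chromosome 8 (hg19/GRCh37 coordinates, GENCODE annotation). TNFRSF10B spans chr8:22877646-22926544 on the minus strand, TNFRSF10C chr8:22960434-22974958 on the plus strand, TNFRSF10D chr8:22993101-23021540 on the minus strand and TNFRSF10A chr8:23047965-23082615 on the minus strand, with gaps of 33.9, 18.1 and 26.4 kb between neighbors. CFLAR (chr2:201980877-202041410) and CASP8 (chr2:202098166-202226559) are also neighbors, both on the plus strand, with CASP10 between them. The others are single loci: TNFSF10 at chr3:172223298-172241265 (minus), FAS at chr10:90750414-90775542 (plus), FADD at chr11:70049402-70053496 (plus) and TNFRSF1A at chr12:6437923-6451280 (minus).

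**Figure D1:**
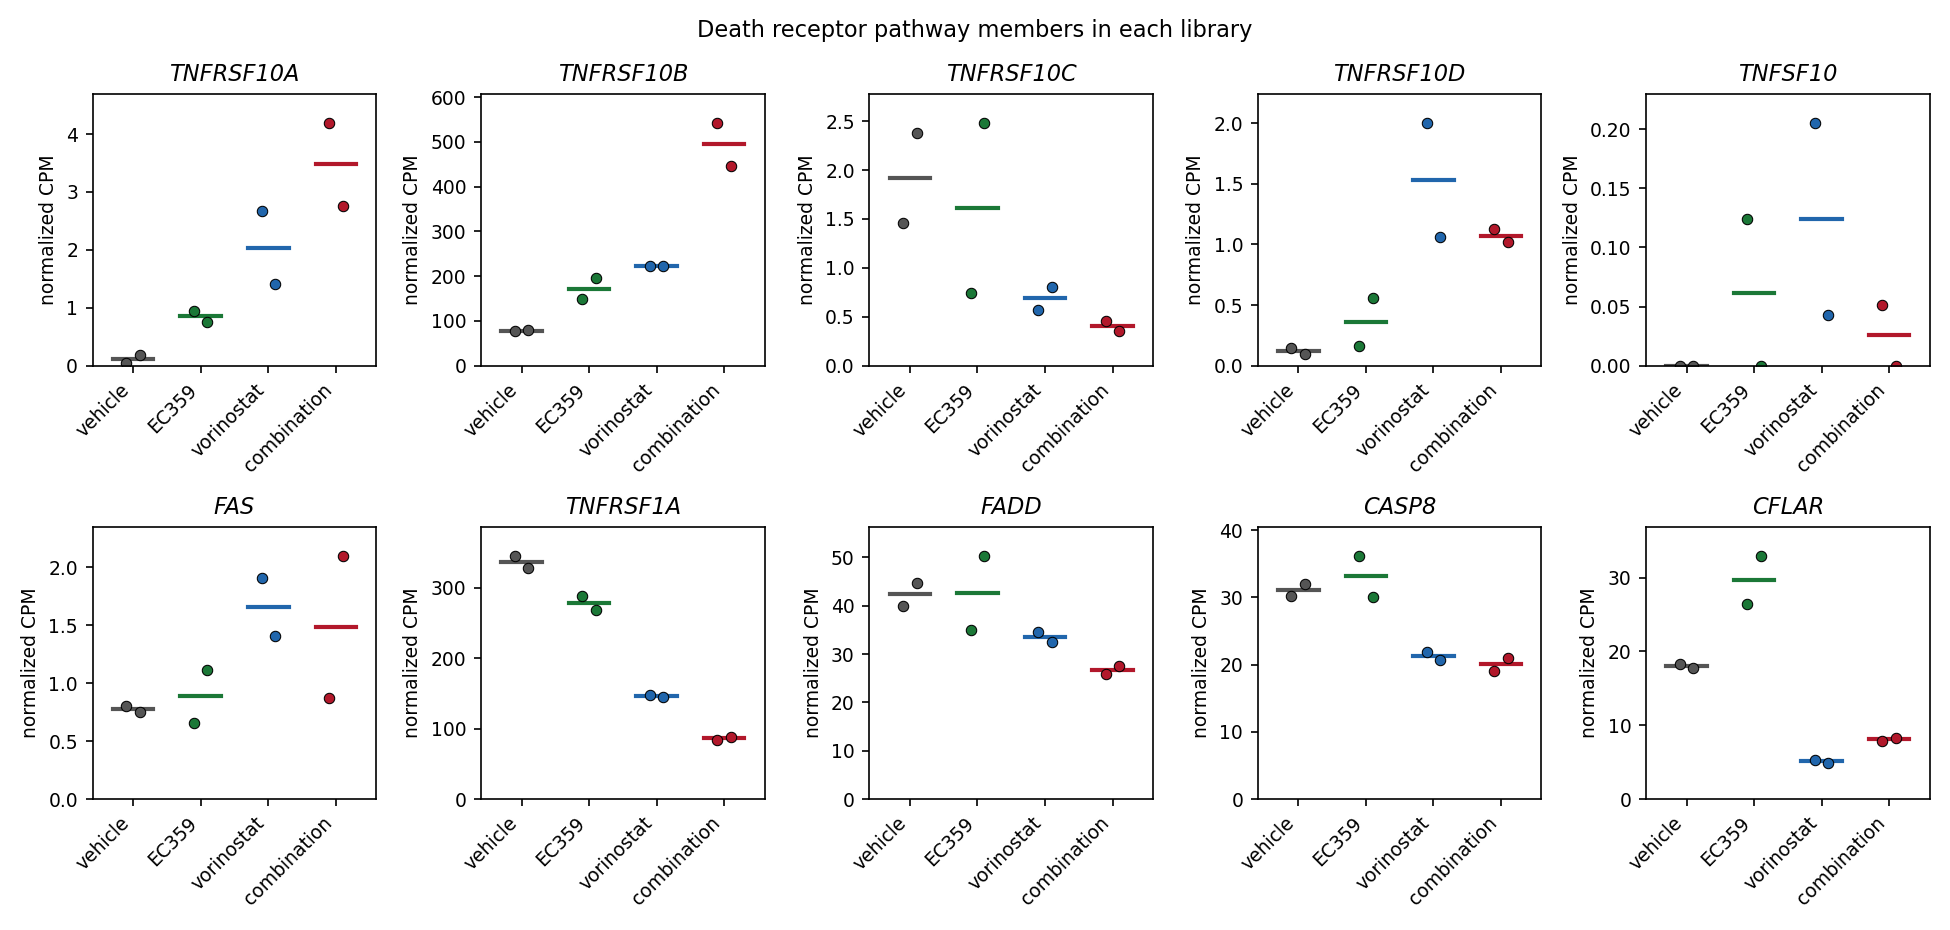
Normalized CPM (y axis, linear from 0, a scale of its own in each panel) of the 10 genes in each library (points) by treatment group (x axis), with the bar at the mean of 2 libraries. TNFRSF10B rises from 77.6 CPM in vehicle to 494 CPM in the combination while TNFRSF1A falls from 336 to 86.3 CPM, and CFLAR is highest with EC359 and lowest with vorinostat.

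The ligand was close to undetectable. TNFSF10 had 0 and 0 reads in the vehicle libraries, 3 and 0 with EC359, 4 and 1 with vorinostat and 1 and 0 in the combination. The pooled counts allow a level of at most 0.0866 CPM in vehicle, 0.199 CPM with EC359, 0.272 CPM with vorinostat and 0.142 CPM in the combination (upper limit of the exact 95% Poisson interval, which covers counting error only). A change in TNFSF10 was not detectable at this depth. FASLG, the ligand of FAS, had 0 reads in all 8 libraries and TNF, the ligand of TNFRSF1A, had 14 in total. Of 6 other ligands listed, 2 had enough reads to test. TNFSF12 (TWEAK), at 5.99 CPM in vehicle, a ligand outside the naming rule because of its low level and picked after its values were seen, fell by 1.60 on the log2 scale both with vorinostat (SE 0.23, adjusted p = 0.000282) and in the combination (SE 0.24, adjusted p = 0.000267). TNFSF15, also outside the rule, was called only in the combination against EC359, where both EC359 libraries were at 0.

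TNFRSF10B, the more abundant of the TRAIL receptors with a functional death domain, rose with each drug and rose further with both. Its level was 76.5 and 78.6 CPM in vehicle, 148 and 196 CPM with EC359, 222 and 223 CPM with vorinostat and 543 and 445 CPM in the combination. No library of one group overlapped another group. EC359 raised it 2.22-fold (log2 1.15, SE 0.14, adjusted p = 0.000782), vorinostat 2.87-fold (log2 1.52, SE 0.14, adjusted p = 1.94e-05) and the combination 6.37-fold (log2 2.67, SE 0.15, adjusted p = 6.57e-07). Against vorinostat alone the combination was 2.22-fold higher (log2 1.15, SE 0.14, adjusted p = 0.000642). Against EC359 alone it was 2.87-fold higher (log2 1.52, adjusted p = 1.55e-05). EC359 and vorinostat as single agents are neighbors in this order and did not differ at the adjusted p threshold of 0.01 (log2 0.37, SE 0.14, adjusted p = 0.0405). Both calls that rest on the EC359 effect were sensitive to single libraries. The call in EC359 against vehicle was lost without vehicle 1 (adjusted p = 0.0143), without vehicle 2 (adjusted p = 0.0131) and without EC359 2 (log2 0.94, under the fold threshold), and the call in the combination against vorinostat was lost without vorinostat 1 (0.0158), vorinostat 2 (0.0148) or combination 1 (0.0137, log2 0.96).

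TNFRSF10A, the other TRAIL receptor with a functional death domain, started near the limit of detection and rose with vorinostat. It had 1 and 4 reads in vehicle, 23 and 15 with EC359, 52 and 33 with vorinostat and 82 and 54 in the combination, which is 0.117 ± 0.0987 CPM (SD, n = 2) in vehicle and 3.48 ± 1.02 CPM (SD, n = 2) in the combination. Every treated library had more reads than either vehicle library, and the groups did not overlap in CPM, although the lower combination library (2.76 CPM) lay close to the higher vorinostat library (2.67 CPM). On the other strand, TNFRSF10A-DT and TNFRSF10A-AS1 overlap 9.09% and 7.65% of the annotated TNFRSF10A exons. Whether reads of these transcripts were counted for TNFRSF10A was not tested. With so few vehicle reads, the ratio to vehicle is given with its counting interval, which was 7.36 (95% 2.89 to 24.0) for EC359, 16.9 (6.95 to 53.2) for vorinostat and 29.6 (12.4 to 92.7) for the combination. Counting intervals pool the reads of a group and cover counting error only, not the spread between libraries. In the fit across all genes it was called with vorinostat (log2 4.04, SE 0.65, adjusted p = 0.000499), in the combination (log2 4.82, adjusted p = 0.000113) and in the combination against EC359 (log2 2.01, adjusted p = 0.00371, lost without combination 1 at 0.0339). EC359 alone did not pass (log2 2.81, SE 0.71, adjusted p = 0.027), nor did the combination against vorinostat (log2 0.78, adjusted p = 0.199). The size of each TNFRSF10A change from vehicle rested on which vehicle library was kept. Without vehicle 1 the log2 values were 2.18 with EC359, 3.38 with vorinostat and 4.17 in the combination, and without vehicle 2 they were 4.03, 5.24 and 6.02, and the vorinostat and combination calls held in both cases. The EC359 value passed with DESeq2 (adjusted p = 0.00847) and without EC359 2 (0.00975).

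Of the decoy receptors, TNFRSF10D rose, whereas TNFRSF10C had lower values that did not pass the test. TNFRSF10D, with 3 and 2 reads in vehicle, 4 and 11 with EC359, 39 and 25 with vorinostat and 22 and 20 in the combination, rose with vorinostat (log2 3.63, SE 0.72, adjusted p = 0.00184) and in the combination (log2 3.13, adjusted p = 0.00475). Its counting ratios to vehicle, again with counting error only, were 12.7 (95% 5.16 to 40.4) and 9.15 (3.62 to 29.6). The vorinostat and combination libraries were all above those of vehicle and EC359. The call with vorinostat was lost without vehicle 1 (adjusted p = 0.0169), vehicle 2 (0.0239) or vorinostat 1 (0.022), and the call in the combination without vehicle 1 (0.029), vehicle 2 (0.0437), vorinostat 1 (0.0113), combination 1 (0.0253) or combination 2 (0.0199). TNFRSF10C had 31 and 51 reads in vehicle, 18 and 49 with EC359, 11 and 19 with vorinostat and 9 and 7 in the combination. In the combination against EC359, TNFRSF10C gave log2 -1.94 (adjusted p = 0.026) and TNFRSF10D 1.61 (adjusted p = 0.0457), neither called. Unnamed GENCODE genes on the same strand overlap 16.9% and 16.1% of the TNFRSF10C exons, and whether their reads were counted for it was not tested. All combination libraries were below all vehicle libraries, with a counting ratio of 0.212 (95% 0.116 to 0.366, counting error only). In the fit, the log2 difference of -2.22 (95% -3.68 to -0.75) had an adjusted p of 0.013 and was not called. It was called with DESeq2 (adjusted p = 0.00713), without a filter on low counts (0.00518), with only the vehicle and combination libraries (0.000981), and without EC359 1 (0.00115) or EC359 2 (0.00126). With vorinostat alone the log2 difference was -1.47 (adjusted p = 0.0535), which was called with only the vehicle and vorinostat libraries (0.00312) and without EC359 1 (0.00985).

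Summed per kilobase of annotated exon, the 2 death-domain TRAIL receptors stood above the 2 decoys in every library, and by more in the treated groups. The ratio of (TNFRSF10A + TNFRSF10B) to (TNFRSF10C + TNFRSF10D) in CPM per kb was 15.5 and 10.0 in vehicle, 56.7 and 22.3 with EC359, 48.5 and 54.7 with vorinostat and 178 and 173 in the combination. The combination libraries were higher than all others and the vehicle libraries lower than all others. In CPM without division by exon length, the mean ratios were 39.8 in vehicle, 114 with EC359, 104 with vorinostat and 335 in the combination. The size of the ratio and the order of the EC359 and vorinostat means thus depend on the exon lengths used. No test was run on ratios because 2 against 2 libraries cannot give an exact p below 0.333. TNFRSF10B made up most of the sum in every group, at 92.2% ± 2.30 of the TRAIL receptor signal per kb in vehicle and 98.3% ± 0.168 in the combination (SD, n = 2).

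FAS stayed low and no difference passed the test in the fit on all 8 libraries. Its reads were 17 and 16 in vehicle, 16 and 22 with EC359, 37 and 33 with vorinostat and 17 and 41 in the combination. The combination libraries lay on either side of the vorinostat libraries. The log2 differences from vehicle were 0.18 (SE 0.53) for EC359, 1.08 (adjusted p = 0.0865) for vorinostat and 0.93 (adjusted p = 0.133) for the combination. The vorinostat value was called when only the vehicle and vorinostat libraries were fitted (log2 1.08, adjusted p = 0.00995), and the combination value ranged from 0.12 (without combination 2) to 1.38 (without combination 1). Part of the annotated FAS exons, 10.7%, overlaps ACTA2 on the other strand, a gene that had 83 reads in all libraries. An unnamed GENCODE transcript on the other strand overlaps 25.7% of them, and whether its reads were counted for FAS was not tested.

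TNFRSF1A, TNF receptor 1, was the most abundant of the 10 genes in vehicle and fell with vorinostat and further in the combination. It was at 344 and 328 CPM in vehicle, 288 and 268 CPM with EC359, 148 and 145 CPM with vorinostat and 84.0 and 88.6 CPM in the combination. The groups did not overlap. Vorinostat lowered it 2.30-fold (log2 -1.20, SE 0.086, adjusted p = 3.72e-06) and the combination 3.90-fold (log2 -1.96, SE 0.088, adjusted p = 2.22e-07). The combination was also 3.23-fold below EC359 alone (adjusted p = 5.36e-07). EC359 alone gave a log2 difference of -0.27 (SE 0.085, adjusted p = 0.0584). In the combination against vorinostat the log2 difference of -0.76 (SE 0.086, adjusted p = 0.00041) passed the p threshold and was under the fold threshold of 1.

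The adaptor FADD and the initiator caspase CASP8 did not reach the fold threshold in any comparison. FADD was at 40.0 and 44.8 CPM in vehicle, 35.0 and 50.3 CPM with EC359, 34.6 and 32.5 CPM with vorinostat and 25.8 and 27.6 CPM in the combination. The combination libraries were lower than all others, and the EC359 libraries lay on either side of vehicle. Its log2 difference in the combination was -0.67 against vehicle (adjusted p = 0.00596) and -0.67 against EC359 (adjusted p = 0.00577), under the fold threshold. CASP8 was at 30.2 and 32.0 CPM in vehicle, 36.1 and 30.1 CPM with EC359, 21.8 and 20.7 CPM with vorinostat and 19.1 and 21.0 CPM in the combination. Its vorinostat and combination libraries overlapped each other and were all below vehicle. The log2 differences from vehicle were -0.55 with vorinostat (SE 0.13, adjusted p = 0.00518) and -0.63 in the combination (adjusted p = 0.00229), again under the fold threshold. Against EC359 the combination gave -0.72 (adjusted p = 0.00104), also under the fold threshold. An unnamed antisense transcript in GENCODE covers 59.2% of the FADD exons, and whether counting used strand was not stated, so its reads cannot be told apart from those of FADD.

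CFLAR, which encodes the caspase-8 inhibitor FLIP, fell with vorinostat and in the combination, and its EC359 libraries lay above vehicle. It was at 18.3 and 17.7 CPM in vehicle, 26.4 and 32.9 CPM with EC359, 5.30 and 4.89 CPM with vorinostat and 7.93 and 8.32 CPM in the combination. No groups overlapped, and the combination lay between vorinostat and vehicle. Vorinostat lowered it 3.53-fold (log2 -1.82, SE 0.16, adjusted p = 1.19e-05) and the combination 2.21-fold (log2 -1.15, adjusted p = 0.000144). The combination was 3.64-fold below EC359 (adjusted p = 6.93e-06). The difference of EC359 from vehicle was log2 0.72 (SE 0.14, adjusted p = 0.00997), past the p threshold and under the fold threshold, and that of the combination from vorinostat was 0.68 (SE 0.16, adjusted p = 0.0157). The direct contrast of vorinostat with EC359 was log2 -2.54 (adjusted p = 1.55e-06). The ratio of CFLAR to CASP8 in CPM had the same order of groups, at 0.606 and 0.553 in vehicle, 0.731 and 1.09 with EC359, 0.243 and 0.237 with vorinostat and 0.416 and 0.396 in the combination. Per kb of annotated exon the mean ratios were 0.187, 0.294, 0.0772 and 0.131 in the same order of groups. The CFLAR annotation joins exons of many isoforms into 22478 bp, so the ratio per kb between the genes depends on which isoform is present, whereas its change between groups does not depend on the length used.

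**Figure D2:**
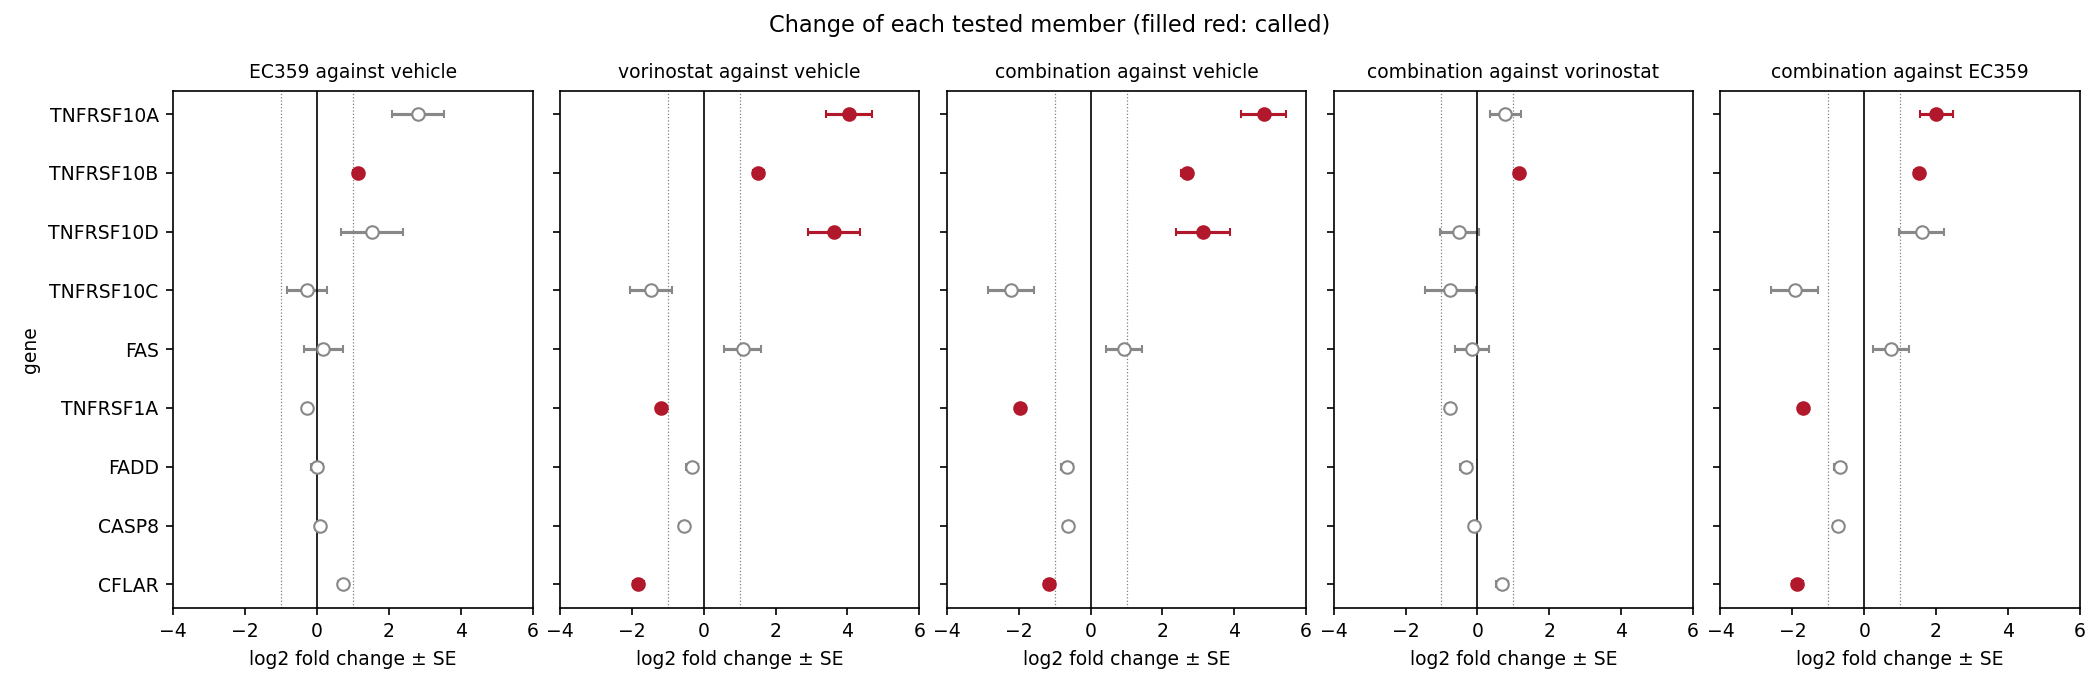
Log2 fold change (x axis) ± SE of the 9 tested genes (y axis) in 5 comparisons (panels), from the edgeR fit on all 8 libraries, with filled red points for calls, which need an adjusted p below 0.01 and a log2 change beyond 1 in either direction (dotted lines). TNFRSF10B is the only gene called in all 5 panels, and CFLAR lies right of 0 with EC359 and left of 0 with vorinostat.

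Read against all genes, the calls among the 9 tested genes were as follows, where a call needed an adjusted p below 0.01 and a log2 change beyond 1 in either direction. EC359 against vehicle gave 1 higher (TNFRSF10B) and 0 lower, where 1.94% of all tested genes were called higher and 1.72% lower. For the 0 lower, 1 gene (TNFRSF1A) was lower at an unadjusted p under 0.05, and DESeq2 also called 0 lower. Vorinostat against vehicle gave 3 higher and 2 lower, beside 16.8% and 13.3% of all genes. The combination against vehicle gave 3 higher and 2 lower, beside 19.5% and 15.3%. In both comparisons the higher genes were TNFRSF10A, TNFRSF10B and TNFRSF10D and the lower ones CFLAR and TNFRSF1A. TNFRSF10A and TNFRSF10D passed the filter on low counts only through treated libraries. A lower call against vehicle was therefore hardly open to them, and their higher calls are not an even comparison with the shares of all genes. The combination against vorinostat gave 1 higher (TNFRSF10B) and 0 lower, beside 3.37% and 0.876%, and the 0 lower stood beside 1 (TNFRSF1A) at an unadjusted p under 0.05 and 0 with DESeq2. The combination against EC359 gave 2 higher (TNFRSF10A and TNFRSF10B) and 2 lower (CFLAR and TNFRSF1A), beside 19.8% and 13.9%. The median log2 change of the 9 was 0.18, -0.34, -0.63, -0.15 and -0.67 in these comparisons, and that of all tested genes was -0.02, 0.03, 0.07, -0.01 and 0.06. These comparisons share libraries and are not independent of one another.

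The interaction asked whether the log2 effect of EC359 differed with vorinostat present. None of the 9 genes passed at an adjusted p under 0.01, where 1.62% of all genes passed above the sum of the single effects and 0.482% below it. At an unadjusted p under 0.05, 2 of the 9 (TNFRSF10A and TNFRSF1A) were below the sum, and DESeq2 called 1 (TNFRSF1A, adjusted p = 0.00812). For TNFRSF10B the single effects summed to log2 2.67 and the combination measured 2.67, with an interaction of 0.00 and a 95% interval of -0.47 to 0.48. For CFLAR the sum was -1.10 and the combination -1.15, with an interaction of -0.04 and an interval of -0.55 to 0.46. The TNFRSF1A interaction was -0.49 (95% -0.76 to -0.22, adjusted p = 0.0463), and it passed without EC359 2 (adjusted p = 0.00267). TNFRSF10A and TNFRSF10D had interactions of -2.03 (95% -3.95 to -0.11) and -2.02 (-4.32 to 0.27), with adjusted p-values of 0.201 and 0.284 at their low read counts. The remaining values were -0.47 for TNFRSF10C, -0.33 for FAS, -0.17 for CASP8 and -0.33 for FADD, none with an adjusted p under 0.461.

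The order of the receptors by level changed between groups. In CPM per kb of annotated exon, TNFRSF1A led in vehicle at 80.0 ± 2.74, before FADD at 24.8 ± 1.97 and TNFRSF10B at 15.5 ± 0.296 (SD, n = 2). With EC359, TNFRSF1A was at 66.2 ± 3.33 and TNFRSF10B at 34.4 ± 6.79. With vorinostat, TNFRSF10B led at 44.4 ± 0.107 before TNFRSF1A at 34.8 ± 0.462, and in the combination the values were 98.7 ± 13.8 and 20.5 ± 0.778. The ratio of TNFRSF10B to TNFRSF1A per kb was thus 0.186 and 0.201 in the vehicle libraries, 0.431 and 0.613 with EC359, 1.26 and 1.29 with vorinostat and 5.43 and 4.22 in the combination, with no overlap between groups. The other 7 genes stayed behind TNFRSF1A, TNFRSF10B and FADD in every group, and CASP8 came next throughout, at 2.77 to 4.57 CPM per kb.

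**Figure D3:**
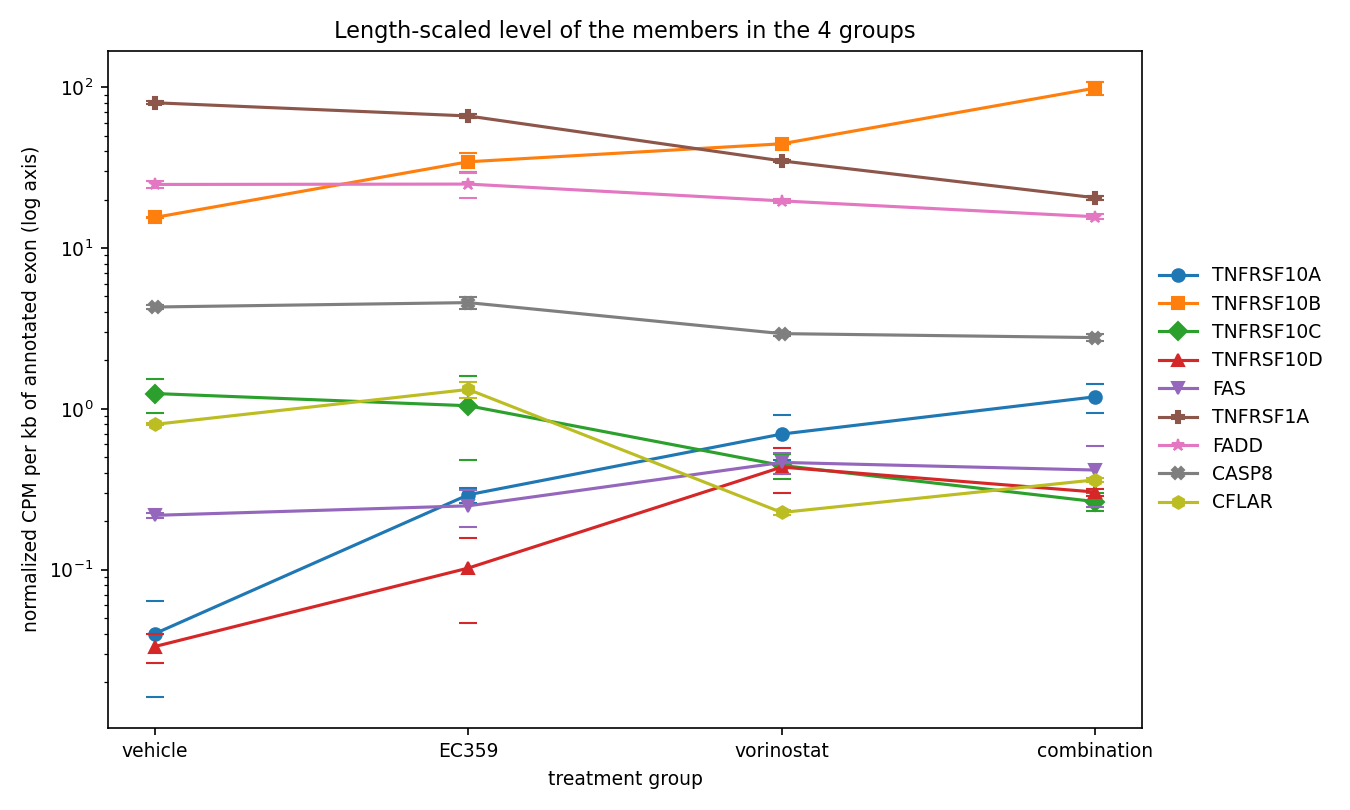
Normalized CPM per kb of annotated exon (y axis, log) of the 9 tested genes in the 4 treatment groups (x axis), where symbols joined by lines are means of 2 libraries and dashes are the libraries. TNFRSF10B climbs from 15.5 to 98.7 and crosses TNFRSF1A, which declines from 80.0 to 20.5, between EC359 and vorinostat.

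Among the other receptors with a death domain, 3 of 5 had enough reads to test. NGFR, the low-affinity neurotrophin receptor, rose from 2.50 and 2.20 CPM in vehicle to 178 and 185 CPM with vorinostat (log2 6.27, SE 0.13, adjusted p = 2.01e-08) and 140 and 143 CPM in the combination (log2 5.91, SE 0.13, adjusted p = 1.15e-08). Its EC359 effect differed with vorinostat present (interaction -1.17, SE 0.17, adjusted p = 0.00492). EC359 against vehicle gave log2 0.81 (adjusted p = 0.00488), under the fold threshold, and the combination against vorinostat gave -0.36 (adjusted p = 0.0182). TNFRSF25, at low counts and outside the naming rule, was the other called gene and rose in the combination (log2 2.10, SE 0.54, adjusted p = 0.00664). Among 7 other TNF receptors and soluble decoys, 4 were tested. LTBR, the lymphotoxin beta receptor, fell with vorinostat (log2 -2.30, SE 0.11, adjusted p = 3.8e-07) and in the combination (-2.63, SE 0.11, adjusted p = 1.28e-07). TNFRSF12A, the receptor for TWEAK, fell with vorinostat (log2 -1.09, SE 0.18, adjusted p = 0.00053) and was higher in the combination than with vorinostat (1.13, SE 0.18, adjusted p = 0.00207). CD40 and TNFRSF9, outside the rule and under 2 CPM in every group mean, were the genes called higher against vehicle. TNFRSF1B, the second TNF receptor, had 18 reads in all and was not tested.

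Of 18 adaptors and ubiquitin enzymes of the receptor complexes, all were tested, and 1 was higher and 0 lower with EC359, 0 higher and 3 lower with vorinostat, and 3 higher and 1 lower in the combination. Over all tested genes the shares were 1.94% and 1.72% with EC359, 16.8% and 13.3% with vorinostat and 19.5% and 15.3% in the combination. Where edgeR gave 0, 0 of the 18 were lower with EC359 and 5 higher with vorinostat at an unadjusted p under 0.05. BIRC3 (cIAP2), a ubiquitin ligase of the TNF receptor complex, rose from 26.1 CPM in vehicle to 93.2 CPM in the combination, where the libraries were at 99.5 and 87.0 CPM (log2 1.84, SE 0.14, adjusted p = 4.26e-06) and was 1.34 above vorinostat alone (SE 0.14, adjusted p = 0.000251). DEDD2, a death effector domain protein, rose in the combination (log2 1.08, SE 0.10, adjusted p = 1.76e-05), and TRADD, the adaptor of TNFRSF1A, was lower in the combination than with vorinostat (-1.26, SE 0.26, adjusted p = 0.00806). TRAF1, outside the naming rule for its level and chosen after its values were seen, had the same order of groups as CFLAR, with 5.05 and 5.33 CPM in vehicle, 16.7 and 17.2 CPM with EC359, 0.617 and 0.340 CPM with vorinostat and 1.84 and 1.58 CPM in the combination. It rose with EC359 (log2 1.71, SE 0.19, adjusted p = 0.000427) and fell with vorinostat (-3.45, SE 0.28, adjusted p = 6.75e-06) and in the combination (-1.60, SE 0.23, adjusted p = 0.000208). The remaining calls against vehicle were DEDD and TRAF5 (log2 -1.09) with vorinostat and TNFAIP3 (1.27) in the combination, of which TRAF5 and TNFAIP3 lie outside the rule.

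Downstream, 5 of 7 further caspases were tested, with 1 higher and 1 lower called with vorinostat and 1 higher and 2 lower in the combination, beside 16.8% and 13.3% and 19.5% and 15.3% of all genes. CASP9, the initiator of the mitochondrial route, rose with vorinostat (log2 2.05, SE 0.16, adjusted p = 6.07e-06) and in the combination (1.93, SE 0.16, adjusted p = 6.66e-06). CASP10, the other initiator that binds FADD, had 3 reads in all libraries. CASP4 and CASP6 were also called and lie outside the rule for their level: CASP4 rose with EC359 (log2 1.81) and fell with vorinostat (-2.05) and in the combination (-1.91), and CASP6 fell in the combination (-1.14). Of 8 genes of the mitochondrial arm, 2 were higher and 1 lower in the combination, beside 19.5% and 15.3% of all genes. BID, which caspase-8 cleaves to engage mitochondria, fell with vorinostat (log2 -1.93, SE 0.18, adjusted p = 1.7e-05) and in the combination (-2.31, SE 0.18, adjusted p = 5.22e-06). DIABLO and HTRA2, released antagonists of inhibitor of apoptosis proteins, each rose by 1.06 in the combination (adjusted p = 2.81e-05 and 0.000512). Of 3 necroptosis genes only MLKL was tested, at 0.614 to 0.798 CPM in the group means, and RIPK3 had 3 reads in all.

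**Figure D4:**
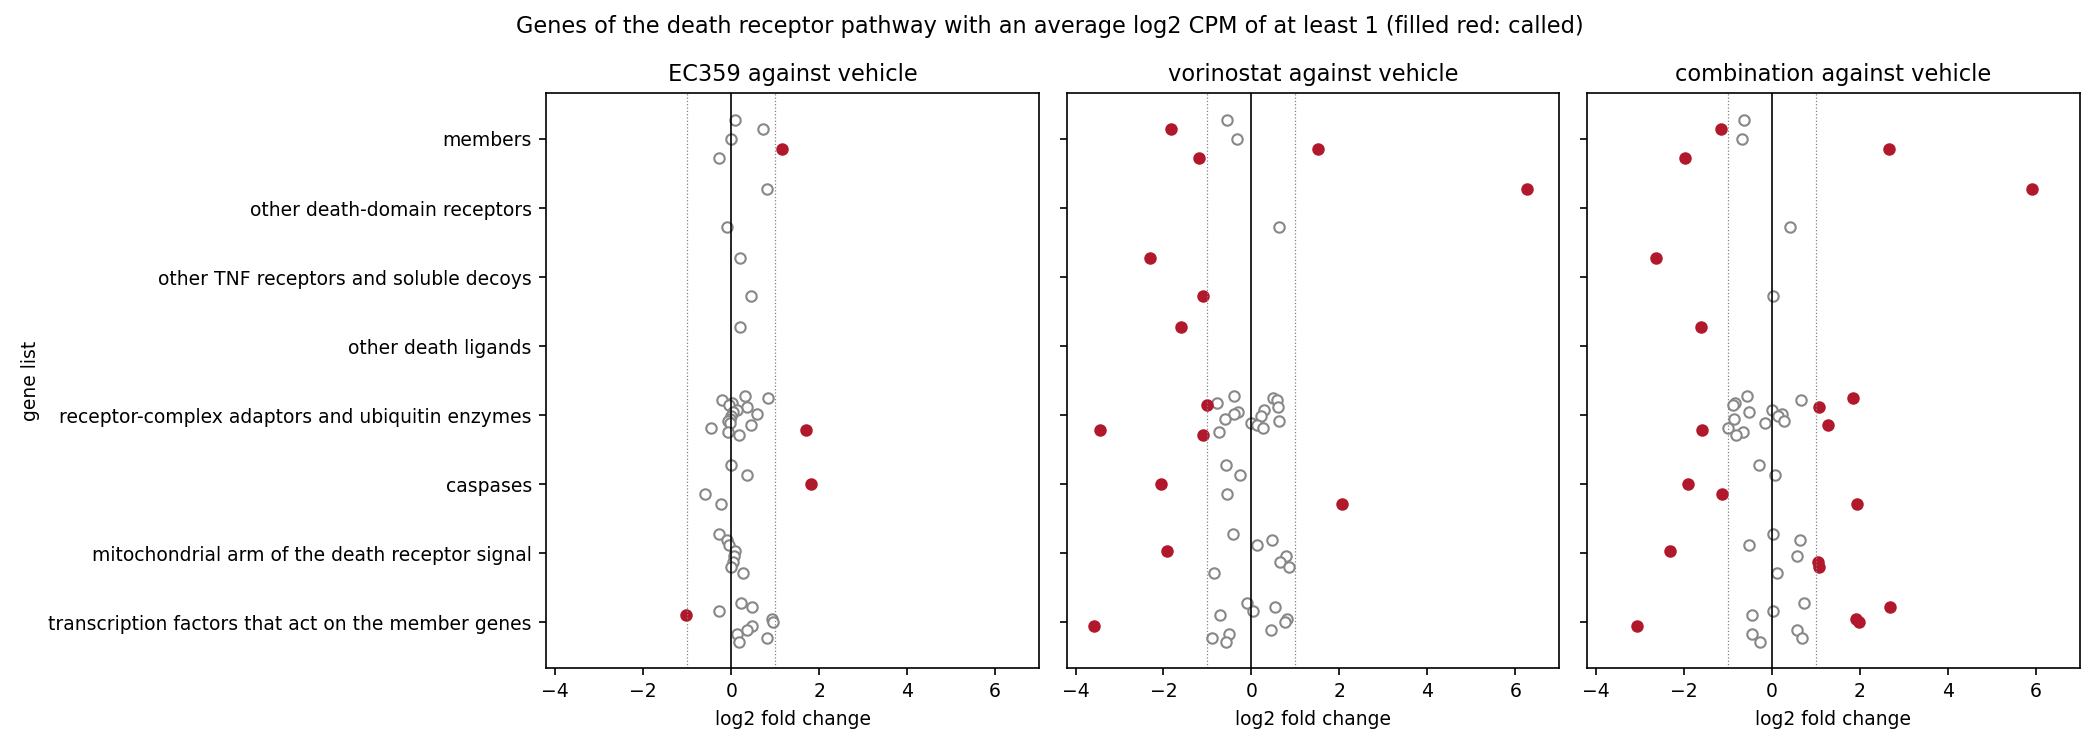
Log2 fold change (x axis) of genes with an average log2 CPM of at least 1 in 8 lists (y axis), for each treatment against vehicle (panels), with filled red points for calls, which need an adjusted p below 0.01 and a log2 change beyond 1 in either direction (dotted lines). The list named members holds only those followed genes that reach this level, so TNFRSF10A, TNFRSF10C, TNFRSF10D, FAS and TNFSF10 are not drawn. The point at the far right of the vorinostat and combination panels is NGFR at 6.27 and 5.91.

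Among 11 regulators known to act on these genes, the calls were 0 higher and 1 lower with EC359, 0 higher and 1 lower with vorinostat, 3 higher and 1 lower in the combination, and 4 higher and 0 lower in the combination against vorinostat. The shares over all genes were 1.94% and 1.72%, 16.8% and 13.3%, 19.5% and 15.3%, and 3.37% and 0.876% in the same order. Where edgeR gave 0, the counts at an unadjusted p under 0.05 were 7 higher with EC359, 4 higher with vorinostat and 0 lower in the combination against vorinostat. DDIT3 (CHOP), a stress factor known to activate TNFRSF10B, was at 24.0 and 25.6 CPM in vehicle, 35.4 and 33.8 CPM with EC359, 35.3 and 36.5 CPM with vorinostat and 167 and 150 CPM in the combination. It rose in the combination (log2 2.68, SE 0.10, adjusted p = 1e-07), and its interaction was above the sum (1.66, SE 0.14, adjusted p = 0.000311), where TNFRSF10B gave 0.00. The difference between the 2 interactions was not tested. JUN rose in the combination (log2 1.91, SE 0.08, adjusted p = 1.22e-07), as did MYC (1.97, SE 0.12, adjusted p = 1.15e-06). NFKB1, a subunit of the factor known to drive CFLAR, TRAF1 and BIRC3, fell with vorinostat (-3.57, SE 0.23, adjusted p = 2.24e-06) and in the combination (-3.05, SE 0.23, adjusted p = 3.3e-06). RELA, which encodes another subunit, had means of 122 CPM in vehicle, 167 CPM with vorinostat and 181 CPM in the combination. BIRC3 rose in the combination, where CFLAR and TRAF1 fell. A link between these subunits and the 3 genes was not tested. TRIB3 was higher in the combination than with vorinostat (1.59, SE 0.19, adjusted p = 0.000515). IRF1, a factor of the interferon response, fell with EC359 (-1.04, SE 0.14, adjusted p = 0.00105) and had an interaction of 1.30 (SE 0.19, adjusted p = 0.00549).

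TNFRSF10B shares 377 bp of exon, 7.53% of its annotated exon length, with RHOBTB2 on the other strand, and whether reads of one gene were counted for the other was not tested. RHOBTB2 rose with vorinostat (log2 1.36, SE 0.11, adjusted p = 6.44e-06) and was at 124 and 130 CPM in the combination against 167 and 168 CPM with vorinostat alone. Its interaction was -1.17 (SE 0.15, adjusted p = 0.00291). EGR3, CHMP7, R3HCC1 and LOXL2 are shown for their place around the cluster and were chosen after their values were seen. R3HCC1 rose with vorinostat (log2 1.47, SE 0.12, adjusted p = 6.51e-06), CHMP7 gave log2 0.72 with vorinostat (adjusted p = 7.6e-05) under the fold threshold, and LOXL2 gave -0.41 (adjusted p = 0.000825). Against vorinostat, the combination gave log2 values of -0.40 for RHOBTB2, -0.12 for CHMP7, -0.52 for R3HCC1 and -0.11 for LOXL2, where TNFRSF10B gave 1.15. EGR3, an early growth response factor farther out on the RHOBTB2 side, was at 0.378 and 0.234 CPM in vehicle and 25.3 and 33.4 CPM in the combination. It rose with vorinostat (log2 2.78, SE 0.42, adjusted p = 0.000356). In the combination it rose both against vehicle (log2 6.56, SE 0.35, adjusted p = 5.34e-07) and against vorinostat (3.77, SE 0.27, adjusted p = 2.64e-05). LOC389641, at 56 reads in all and outside the rule, was called higher in the combination (adjusted p = 0.00317). Beside the other loci, NCEH1, a neighbor of TNFSF10, rose with EC359 (log2 1.85, SE 0.09, adjusted p = 3.57e-06), with vorinostat (1.35, SE 0.09, adjusted p = 2.24e-06) and in the combination (1.85, adjusted p = 3.19e-07). The NCEH1 interaction was -1.35 (SE 0.12, adjusted p = 0.000455). FAM126B, near CFLAR, rose with vorinostat (1.74, adjusted p = 2e-06) and in the combination (2.26, adjusted p = 3.58e-07). Of the 11 tested neighbors of all loci, 5 were higher and 0 lower with vorinostat, and 4 higher and 0 lower in the combination, where 1 was lower at an unadjusted p under 0.05 in each. Over all tested genes the shares were 16.8% higher and 13.3% lower with vorinostat and 19.5% and 15.3% in the combination.

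**Figure D5:**
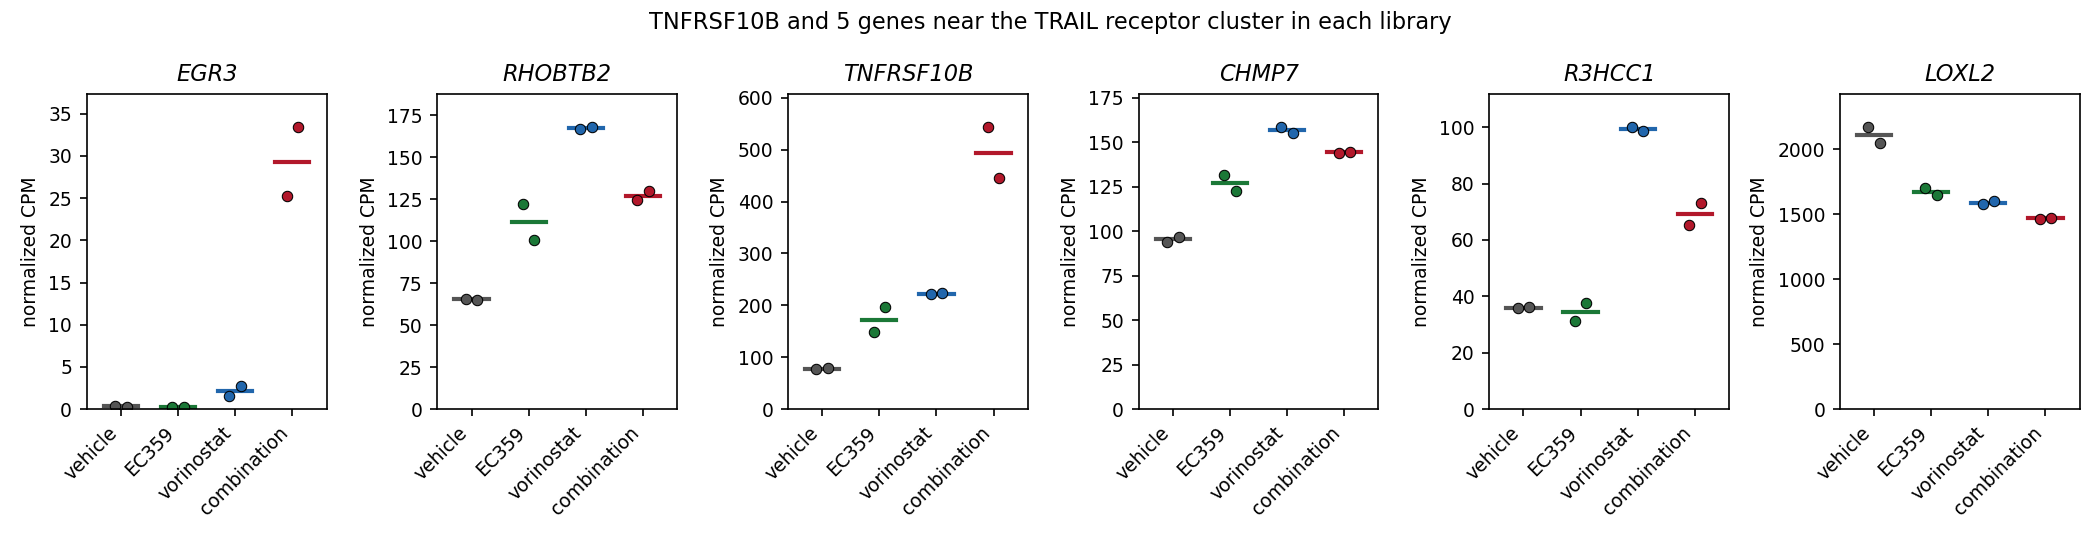
Normalized CPM (y axis, linear from 0, a scale of its own in each panel) of TNFRSF10B and 5 genes near the TRAIL receptor cluster in each library (points) by treatment group (x axis), with the bar at the mean of 2 libraries. TNFRSF10B is highest in the combination, at 543 and 445 CPM, as is EGR3 at 25.3 and 33.4 CPM, whereas RHOBTB2 is highest with vorinostat alone.

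Genes with the most similar pattern were ranked by the root mean square distance of log2 CPM, centered on the vehicle mean, over the 8 libraries, among genes with an average log2 CPM of at least 3. For TNFRSF10B these were PDP1 (distance 0.207), PNP (0.219) and PMAIP1 (0.230), the last known as the apoptosis gene NOXA. PDP1 had log2 changes of 0.96, 1.36 and 2.54 with EC359, vorinostat and the combination. In the same order, PNP had 1.34, 1.87 and 2.64 and PMAIP1 had 0.94, 1.63 and 2.80. For TNFRSF10A, whose vehicle level is poorly determined, they were ITGB3 (0.530), GFPT2 (0.546) and SAT1 (0.551). For CFLAR they were MLPH (0.117), STEAP3 (0.169) and IVNS1ABP (0.202), and MLPH had log2 changes of 0.82, -1.75 and -1.13 in the same order. This is a description of 8 libraries that share their vehicle samples.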

How the data were processed

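Total RNA from 8 BT-549 samples was sequenced as 50 bp single-end reads. The authors aligned reads to hg19 with TopHat2 (2.0.8b) and counted RefSeq genes with HTSeq (version not given in the sources used here). The deposited values are raw counts per gene and library. The strand setting was not given in the sources used here. The 5 HTSeq summary lines were left out. Reads on genes were 85.1 to 88.1% of the uniquely aligned, and ambiguous reads 0.649 to 0.851%.

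From these counts, edgeR 4.0.16 (R 4.3.3) was fitted to all 8 libraries with 1 mean per group after filterByExpr and TMM scaling, and quasi-likelihood tests were adjusted by Benjamini-Hochberg over 13694 genes. SE is the absolute log2 fold change over the square root of F, and 95% intervals use the t distribution of the same fit. The code was tested on simulated data. Exon lengths and overlaps came from GENCODE 44 lifted to GRCh37. Fold changes of lists are described by counts and medians, without a set test. Any of the 10 genes could be named in a comparison, though not every value is given. Of other lists, the rule allowed at most 4 called genes per comparison with average log2 CPM of at least 3. 2 genes first placed on these lists were left out of them and are not reported here. The genes and lists were chosen with earlier results of these data known. Alternatives covered DESeq2 1.42.0, other scaling, filters and thresholds, a replicate block, the groups compared alone, and leaving out each library.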

Additional observations from a re-analysis of the deposited data

How the results depend on the processing

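Calls on vorinostat and combination against vehicle and on the combination against EC359 stayed within 1.5 times under every alternative run. EC359 against vehicle gave 2 called genes with DESeq2, at an adjusted p under 0.05 and without a fold threshold, 0 with only the 4 libraries compared, and 0 to 1 when each library was left out. The combination against vorinostat gave 2 without a fold threshold and 0 to 1 with each library left out. The interaction gave 1 with DESeq2 and at an adjusted p under 0.05, and 0 to 1 with each library left out. Causes were not tested. Whether libraries sharing a number shifted alike was examined by correlation between groups, which ran from -0.173 (EC359 and combination) to 0.231 (vehicle and EC359). These values cannot decide whether the numbers pair the samples, since each group had only 2 libraries. With a replicate block the counts were 1, 5, 6, 1 and 4 in the 5 comparisons and 0 for the interaction, with TNFRSF10C (adjusted p = 0.00904) added in the combination against vehicle. A crossed pairing with the combination numbers exchanged, chosen after seeing the data, gave 1, 5, 6, 1, 5 and 0. The differences that changed sign were not called. FADD with EC359 was -0.0022 with total counts, -0.0037 with the replicate block and -0.0016 with the crossed pairing. The TNFRSF10B interaction was -0.048 with DESeq2, -0.046 with RLE scaling, -0.080 with total counts and -0.064 without a filter. Leaving out each library in turn gave ranges with EC359 of -0.27 to 0.25 for FADD, -1.36 to 0.37 for TNFRSF10C, -0.22 to 0.53 for FAS and -0.042 to 0.227 for CASP8. FAS ranged from -0.96 to 0.31 in the combination against vorinostat and from -0.078 to 1.19 against EC359. Interactions ranged from -0.20 to 0.21 for TNFRSF10B, -1.12 to 0.61 for TNFRSF10C, -1.15 to 0.12 for FAS and -0.20 to 0.12 for CFLAR. Where a group kept 1 library, it was assumed to vary like the others. Of the alternative log2 values, 779 kept direction and side of the threshold, 16 gained a call, 16 lost one and 25 changed sign. Without scaling factors the share of higher calls over all genes in the combination against vorinostat was 67.6%, against 79.4% with TMM, and for the interaction 68.6% against 77.1% (62.6% of 685 with DESeq2 against 288 with edgeR). With at least 50 counts required in 2 libraries, TNFRSF10C, TNFRSF10D and FAS gave no value. At few reads, TNFSF10, TNFRSF10A, TNFRSF10C, TNFRSF10D and FAS are limited by depth.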
